A study of Mus musculus with 15 samples.

Results

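Mechanical ventilation with synthetic air was compared with spontaneous breathing in the mouse lung, using the arrays whose labels name the treatment group as air ventilated or control. These are 10 of the 15 arrays, 5 mice in each group, and they were compared across all 21780 transcript clusters with 1 gene symbol. All animals were C57BL/6N males, of an inbred strain, and weighed 24 to 26 g. Every mouse, the controls included, received ketamine (90 mg/kg) and acepromazine (1 mg/kg), lay on a heating pad and carried a tracheal tube and an arterial line. Control mice breathed synthetic air by their own effort for 6 h. Air-ventilated mice were given synthetic air by a rodent ventilator for 6 h, with breaths of 12 ml/kg at 80 to 90 per minute and 2 cmH2O of pressure kept at the end of expiration (PEEP). The groups thus share the anesthetic doses given at induction, surgery, gas and duration. The comparison asks which transcripts change when the machine drives breaths of this size with PEEP, and these parts cannot be told apart. RNA came from the homogenised inferior right lobe, with 1 Affymetrix whole-transcript array per mouse, so all cell types left in the lobe are read together. Per the study's methods, bronchoalveolar lavage fluid was also collected at the end, without saying which lobes were washed. Leukocytes removed with that fluid would not be read, and its effect on leukocyte markers was not tested.

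A ventilator moves gas into the lung under positive pressure and stretches the alveolar epithelium, the capillaries wrapped around it and the matrix fibres between them with every breath. Breaths that are large for the animal can injure this barrier over hours, a state called ventilator-induced lung injury. It is known for leak of plasma into the air spaces, for cytokine release, and for neutrophils that enter the lung from the blood. Transcripts in such a lobe can change within its resident cells or because leukocytes enter and leave it.

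Expression is given as linear intensity per transcript cluster, the group of probes that together cover a transcript. Array medians were 184 to 187 in control and 179 to 187 in air-ventilated mice, and 2 arrays of a group correlated at 0.986 to 0.993 across clusters, which are not independent replicates. The lobe carried the markers of lung. Sftpc, the surfactant protein of alveolar type II cells, stood at 13759 to 14825 in control and 13845 to 14795 in air-ventilated mice, and Scgb1a1, the secretory protein of club cells, at 10487 to 11599 and 10058 to 12831. The labels carry 2 numbers for each mouse, of which the second, a running number, is used here as its name, and the sources used here do not say what either counts. Control mice are 1, 5, 9, 21 and 25 and air-ventilated mice 2, 6, 10, 22 and 26, and values of single mice follow these orders throughout. In each group 3 mice carry numbers from 1 to 12 and 2 mice numbers from 20 to 28. After group means were subtracted, the first principal component, with 26.9% of the variance, split the mice into exactly these number sets. Precision is limited by having 5 arrays in a group.

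Intensities were transformed to log2 and fitted with limma, and all adjusted p values below are limma's with Benjamini-Hochberg adjustment over the whole table. Each mouse was left out in turn, and where this ended a call in any of the 10 fits, the highest adjusted p among them follows the full one, after the word or, with the number of fits that missed 0.05. Counts of list members that moved by more than 1.5 times are given with the mice that moved them, except that counts of 0 to 2 members in many lists moved by 1 or 2. Calling a cluster took 3 conditions together, a p no higher than 0.005, an adjusted p no higher than 0.1 and a change of 1.7-fold or more. By this rule 249 of 21780 clusters were called, a background of 1.14%, with 83 higher (0.381%) and 166 lower (0.762%) under air ventilation. The surplus of lower clusters came mostly from a single gene. Hmcn1, which encodes hemicentin 1, a giant extracellular protein of basement membranes, is covered by 77 clusters, of which 74 were called. Counted as genes, 82 were called higher and 84 lower. In 141 of these 166 genes the 5 air-ventilated mice lay entirely outside the range of the 5 controls, 77 above it and 64 below it. With each of 19934 genes read at its brightest cluster alone, 162 were called (0.813%), 80 higher (0.401%) and 82 lower (0.411%). Over all genes the groups did not overlap in 6.47%, with ventilated mice above all controls in 3.22% and below them in 3.25%. At an adjusted p under 0.05 with no minimum fold, the rule used below for members of gene lists, 776 genes passed (3.89%), of which 388 were higher (1.95%) and 388 lower (1.95%), with a median absolute log2 change of 0.52. The median change over all genes was 0.01 on the log2 scale. CyberT, the regularised test named in the study's methods, passed 562 genes upward and 704 downward at the same threshold. An unadjusted p under 0.05, cited below for many lists, was reached by 3153 of the 19934 genes in limma, 1461 higher and 1692 lower.

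**Figure D1:**
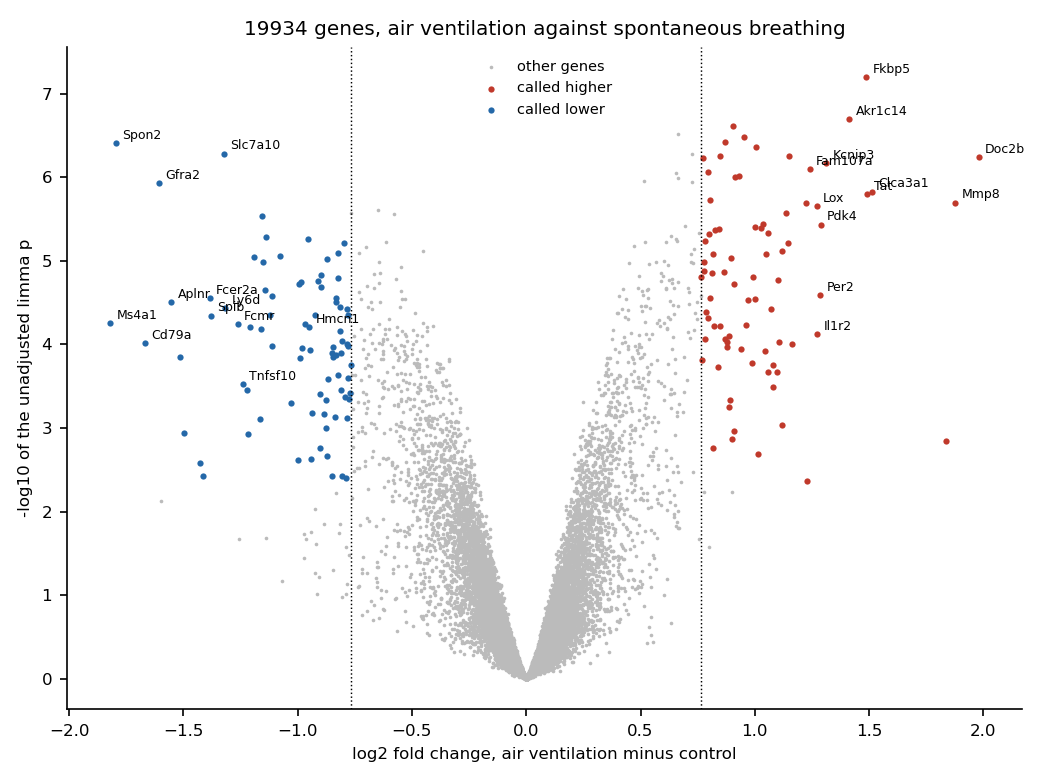
Each point is 1 of 19934 genes, placed by its log2 fold change between air-ventilated and control mice (horizontal) and the minus log10 of its unadjusted limma p (vertical), with called genes in colour, dotted lines at the fold minimum and the leading genes named. The plot is nearly symmetric, with 80 called genes to the right and 82 to the left when each gene is read at its brightest cluster.

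The largest rise was that of Doc2b, a calcium sensor that acts in vesicle fusion. Its intensities were 112, 88.8, 91.2, 248 and 211 in the control mice and 558, 509, 538, 414 and 720.1 in the air-ventilated mice. Every ventilated mouse was above every control, and the log2 fold change was 1.98 (SE 0.25, adjusted p = 0.00104). Mmp8, the collagenase stored in neutrophil granules, followed with 398, 778, 469, 1059 and 895 in control and 2406, 3111, 2195, 1748 and 3206 in ventilated mice, a change of 1.88 (SE 0.26, adjusted p = 0.00175). The groups did not overlap, although control mice 21 and 25 were the highest of their group in both genes and mouse 22 the lowest of the ventilated group. Of the 12 largest rises with groups that did not overlap, the others were Clca3a1, Tat, Fkbp5, Akr1c14, Kcnip3, Pdk4, Per2, Il1r2, Lox and Fam107a. Under the same condition the 12 largest falls were Ms4a1, Spon2, Cd79a, Gfra2, Aplnr, Fcer2a, Spib, Slc7a10, Ly6d, Fcmr, Tnfsf10 and Hmcn1. Of these, Ms4a1, Cd79a, Fcer2a, Spib, Ly6d and Fcmr belong to B lymphocytes, Aplnr to capillary endothelium and Slc7a10 to alveolar fibroblasts. They are described with those cells below. Called genes whose groups overlapped reached similar sizes, among them Slc7a11 upward, and downward Bank1, a scaffold of B cell receptor signalling (-1.51, SE 0.30, adjusted p = 0.0106), the myeloid adhesion receptor Adgre4 (-1.50, SE 0.38, adjusted p = 0.0384, or 0.104 without air-ventilated mouse 10, missed in 7 of 10), and Ms4a4c (-1.43, SE 0.40, adjusted p = 0.0656) and Serpinb10 (-1.41, SE 0.42, adjusted p = 0.0824). In whole lobes, fewer cells of a type and less RNA per cell cannot be told apart. Among the remaining leading rises, Akr1c14, an enzyme that reduces steroid hormones, stood at 1088, 1392, 1309, 1788 and 1489.9 in control and 4372, 3707, 4699.8, 2499 and 3711 in ventilated mice (1.41, SE 0.16, adjusted p = 0.00104). Fam107a, an actin-bundling protein induced by stress, stood at 720.4, 535, 445, 939.5 and 706 against 1760.2, 1326, 1516, 1341 and 1756 (1.24, SE 0.16, adjusted p = 0.00119). Neither gene overlapped between the groups.

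**Figure D2:**
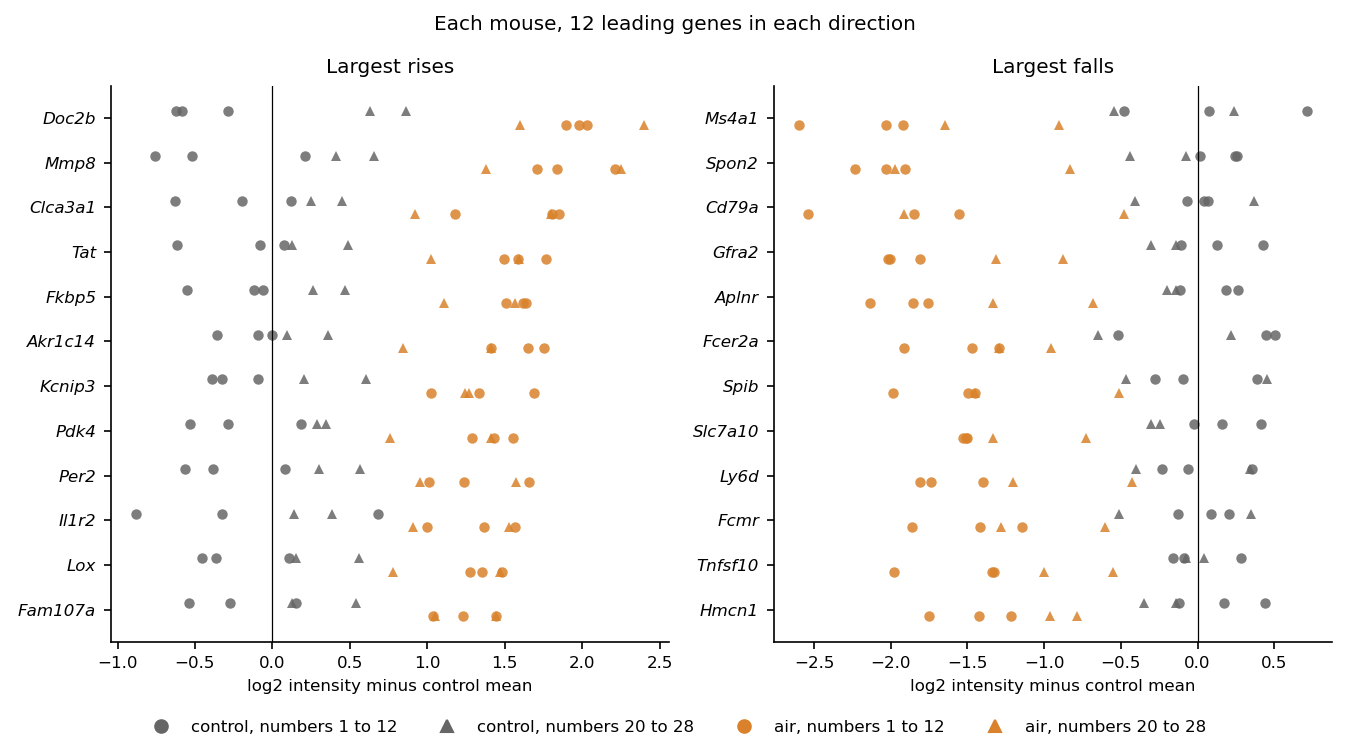
Each symbol is 1 mouse, placed by its log2 intensity minus the mean of the 5 control mice, for the 12 largest rises (left) and falls (right), with control in grey, air ventilation in orange, circles for mice numbered 1 to 12 and triangles for 20 to 28. Groups do not overlap in any of the 24 genes, which the choice of these genes required, and the orange triangle nearest the controls is mouse 22 in most of them.

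Glucocorticoids, released by the adrenal cortex under stress, act through a nuclear receptor that switches on a known set of genes in most tissues. A large share of this set rose with ventilation. Fkbp5, a cochaperone that restrains the receptor itself, stood at 613, 638, 454, 921 and 798 in control mice and 2044, 1891, 2070.2, 1434 and 1973 in ventilated mice. Its change was 1.49 (SE 0.16, adjusted p = 0.00104). Tat, the tyrosine aminotransferase, stood at 245, 219, 151, 326 and 253 against 653, 789, 695, 472 and 699, and changed by 1.49 (SE 0.20, adjusted p = 0.0015). Both genes were without overlap, with mouse 22 lowest of the ventilated group. Of 27 glucocorticoid-induced genes measured, 15 were higher (all genes 1.95%), 0 lower and 12 did not pass, and the median change of the list was 0.44. The others that rose included Lpin1, a phosphatase of triglyceride synthesis (0.91, SE 0.12, adjusted p = 0.00121), Tdo2, which opens tryptophan breakdown (1.14, SE 0.16, adjusted p = 0.00196), Hif3a, an inhibitory hypoxia-inducible factor subunit (1.06, SE 0.16, adjusted p = 0.00256), Klf15, a metabolic transcription factor (0.71, SE 0.12, adjusted p = 0.00479), and Zbtb16, a zinc finger repressor (1.06, SE 0.22, adjusted p = 0.0134). Tsc22d3, the glucocorticoid-induced leucine zipper protein, was close to the threshold at 0.35 (SE 0.09, adjusted p = 0.036, or 0.105 without control mouse 9, missed in 8 of 10).

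The clock genes form a feedback loop in which BMAL1, encoded by Arntl, activates the Per, Cry and Nr1d genes, whose products repress it in turn. With ventilation several repressors of the loop were higher and Arntl was lower. Per2, a repressor of the loop, stood at 337, 245, 215, 471 and 393 in control and 751, 1004, 641, 616 and 949.7 in ventilated mice, a change of 1.29 (SE 0.22, adjusted p = 0.00504). Arntl stood at 570.4, 639, 698, 371 and 425 against 227, 130.1, 288, 313 and 218, a change of -1.22 (SE 0.27, adjusted p = 0.0177, or 0.0598 without control mouse 9, missed in 2 of 10). In both genes the groups did not overlap, and control mouse 21 was the nearest of its group to the ventilated mice. Of 19 clock genes measured, 7 rose, 1 fell, and the median change was 0.64. The other genes that rose were Tef, an output transcription factor that binds D-boxes (1.03, SE 0.15, adjusted p = 0.00235), the repressors Cry1 (0.63, SE 0.11, adjusted p = 0.00532) and Per3 (1.05, SE 0.21, adjusted p = 0.00972), Wee1, a kinase under clock control (0.70, SE 0.15, adjusted p = 0.0153, or 0.0503 without control mouse 9, missed in 1 of 10), Nr1d2, a nuclear repressor of Arntl (1.08, SE 0.24, adjusted p = 0.0169, or 0.0558 without control mouse 9, missed in 1 of 10), and Ciart, a repressor that acts on BMAL1 (1.12, SE 0.28, adjusted p = 0.0334, or 0.0941 without air-ventilated mouse 6, missed in 7 of 10). Dbp, another D-box factor, stood at 465, 179.8, 149.6, 703 and 396 in control and 708, 894, 732, 748 and 705 in ventilated mice. Its groups did not overlap, but its change of 1.23 had an adjusted p of 0.0888, with control mouse 21 close to the ventilated values. Dbp was thus among the genes called higher, where the limit is 0.1, but is not counted as passing here. The sources used here do not give the hour at which lungs were taken, and its part was not tested. The count of higher clock genes ranged from 4 without control mouse 9 to 10 without control mouse 21.

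The promoters of a few of these genes show the short sequences through which such factors bind, and 3 are printed here because they hold the motif of the clock loop or of the oxidant response and their genes passed the test. They are the RefSeq windows from 250 bases before to 50 bases after the start, on build GRCm38.p6. In Ciart (chr3:95882179-95882478, minus strand) capitals mark CACGTG, the E-box. In Per3 (chr4:151044616-151044915, minus strand) capitals mark TTATGTAA, one of 2 D-box spellings searched beside TTACGTAA. In Srxn1 (chr2:152105274-152105573, plus strand), the gene of sulfiredoxin described below, capitals mark the AP-1 site TGAGTCA or TGACTCA and the core of the antioxidant response element, TGACNNNGC, which here lies on the opposite strand. An AP-1 site TGACTCA that is followed by GC counts for both.
Ciart: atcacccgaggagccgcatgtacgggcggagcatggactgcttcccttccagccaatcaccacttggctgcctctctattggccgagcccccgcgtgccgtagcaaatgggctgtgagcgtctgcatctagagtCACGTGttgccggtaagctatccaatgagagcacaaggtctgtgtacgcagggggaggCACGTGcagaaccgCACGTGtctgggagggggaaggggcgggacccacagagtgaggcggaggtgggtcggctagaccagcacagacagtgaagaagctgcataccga
Per3: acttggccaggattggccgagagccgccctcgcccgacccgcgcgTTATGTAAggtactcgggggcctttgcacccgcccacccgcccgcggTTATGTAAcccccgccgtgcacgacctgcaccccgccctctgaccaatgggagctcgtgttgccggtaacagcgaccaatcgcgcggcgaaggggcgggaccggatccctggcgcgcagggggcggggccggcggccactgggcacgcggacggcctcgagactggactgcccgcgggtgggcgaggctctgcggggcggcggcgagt
Srxn1: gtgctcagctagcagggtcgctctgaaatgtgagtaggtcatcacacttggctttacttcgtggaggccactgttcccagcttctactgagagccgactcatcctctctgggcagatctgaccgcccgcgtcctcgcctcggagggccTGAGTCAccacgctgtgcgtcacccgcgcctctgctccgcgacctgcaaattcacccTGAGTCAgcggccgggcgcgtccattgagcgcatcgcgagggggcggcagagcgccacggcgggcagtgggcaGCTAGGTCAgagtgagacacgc
Both strands were searched, and a match describes letters, not a bound site. The E-box was found 3 times in the window of Ciart and the D-box 2 times in that of Per3. Over all 32851 promoter windows the E-box occurs in 7.15%, the D-box in 1.06%, the AP-1 site in 5.2% and the antioxidant core in 12.4%. Of the 166 called genes 127 had a window, and as some have several starts, the 68 genes called higher have 96 windows and the 59 called lower 66. The E-box was in 14.6% of windows of genes called higher and 9.09% of those called lower, the D-box in 3.12% and 3.03%, the AP-1 site in 12.5% and 6.06%, and the antioxidant core in 12.5% and 15.2%. A full palindromic glucocorticoid response element was in 3 windows of the whole table and in none of these, which says only that these letters are not in such short windows.

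Several genes of fat use rose. Pdk4, the kinase that turns off pyruvate dehydrogenase and so spares glucose, stood at 1144, 824, 697, 1229 and 1277 in control and 2456, 2948, 2715, 1705 and 2681 in ventilated mice (1.29, SE 0.19, adjusted p = 0.00235), with no overlap. Of 23 genes of fatty acid oxidation and PPAR targets, 6 were higher and 0 lower (median 0.18). Angptl4, an inhibitor of lipoprotein lipase, and Lpl, the lipase itself, both rose (0.91 (SE 0.15, adjusted p = 0.00435) for Angptl4 and 0.79 (SE 0.14, adjusted p = 0.00589) for Lpl), as did Pnpla2, the first lipase of stored triglyceride (0.65, SE 0.12, adjusted p = 0.00595). In fatty acid and triglyceride synthesis 2 of 20 genes were higher, Lpin1 and Lpin2 (0.51, SE 0.09, adjusted p = 0.00474), and 4 lower, led by the desaturase Fads2 (-0.67, SE 0.11, adjusted p = 0.00463). The lower count ranged from 1 without control mouse 25 to 4 without air-ventilated mouse 22. Of 18 genes of cholesterol synthesis 1 was higher and 1 lower, and 15 of the 18 had a negative sign. The higher one was Pmvk, phosphomevalonate kinase, at 304 to 356 in control and 474 to 1330.4 in ventilated mice (1.10, SE 0.21, adjusted p = 0.00875). Of 24 drug-metabolising enzymes 6 were higher, 0 lower and 18 did not pass, and 5 had a negative sign. Those that rose included Cyp2b10 (0.53, SE 0.09, adjusted p = 0.00474), the flavin monooxygenase Fmo2 (0.38, SE 0.07, adjusted p = 0.00739) and the sulfotransferase Sult1a1 (0.69, SE 0.14, adjusted p = 0.0107). Probes for Cyp2b10 may share sequence with its close relatives. Of 24 subunits of the respiratory chain 0 passed in limma and 0 in CyberT, and 0 were at an unadjusted p under 0.05, with changes between -0.10 and 0.08.

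Nrf2 is a transcription factor that is released when oxidants modify its anchor and that raises genes of glutathione and thioredoxin chemistry. Of 21 targets measured 9 were higher and 0 lower, with a median of 0.52. Srxn1, sulfiredoxin, which repairs oxidised peroxiredoxins, stood at 416, 349.6, 348, 669 and 547 in control and 1458, 769, 704, 922 and 1138 in ventilated mice. The groups did not overlap and its change was 1.10 (SE 0.23, adjusted p = 0.0134), with control mouse 21 nearest the ventilated group. Gclm and Gclc, the subunits of the enzyme that limits glutathione synthesis, rose (0.76 (SE 0.13, adjusted p = 0.00504) for Gclm and 0.64 (SE 0.13, adjusted p = 0.00951) for Gclc), and Txnrd1, thioredoxin reductase 1, rose by 0.60 (SE 0.10, adjusted p = 0.00402). The largest value was that of Slc7a11, the cystine importer. Its intensities were 134, 247, 172, 739 and 451 in control and 1816, 343, 1008, 1212 and 1457 in ventilated mice, so that ventilated mouse 6 lay below control mice 21 and 25. The change was 1.84 (SE 0.48, adjusted p = 0.0445, or 0.124 without air-ventilated mouse 2, missed in 8 of 10) with an interval of 0.83 to 2.85. The count of higher Nrf2 targets ranged from 4 without control mouse 9 to 9 without control mouse 21. Of 17 antioxidant enzymes outside this list, such as catalase and superoxide dismutases, 0 were higher and 0 lower in limma or CyberT, with 2 lower at an unadjusted p under 0.05. The zinc-binding metallothioneins Mt1 (0.89, SE 0.17, adjusted p = 0.00792) and Mt2 (0.97, SE 0.17, adjusted p = 0.00524) rose, and the other 11 genes of metallothioneins and zinc transport did not pass.

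Other stress responses moved in part. In the integrated stress response, in which cells short of amino acids or with misfolded protein slow translation and raise amino acid genes, 6 of 21 genes were higher and 0 lower. They included Slc7a11, already counted among the Nrf2 targets, Cth, an enzyme that makes cysteine (0.51, SE 0.11, adjusted p = 0.0146), and Sesn2, a sensor of leucine (0.41, SE 0.10, adjusted p = 0.0283, or 0.0833 without control mouse 9, missed in 6 of 10). The higher count of the integrated stress response ranged from 1 without control mouse 9 to 9 without air-ventilated mouse 6. Among 18 p53 targets 7 rose and 0 fell, led by Perp, a desmosome protein (0.76, SE 0.11, adjusted p = 0.00256), Trp53inp1, a stress-induced nuclear protein (0.77, SE 0.13, adjusted p = 0.00409), and the death receptor Fas (0.50, SE 0.10, adjusted p = 0.00916). The p53 count ranged from 3 without control mouse 9 to 8 without air-ventilated mouse 22. Gadd45a, a growth arrest protein, stood at 212, 207, 219, 208 and 210.3 in control and 285, 269.6, 243, 256 and 308 in ventilated mice, which did not overlap, and changed by 0.36 (SE 0.09, adjusted p = 0.0426, or 0.117 without air-ventilated mouse 26, missed in 8 of 10). Atf3, a stress-induced transcription factor, stood at 401 to 537 in control and 348 to 595 in ventilated mice, with a change of 0.00 and an interval of -0.34 to 0.35 (adjusted p = 0.998). Socs3, an inhibitor of cytokine receptors, overlapped between the groups at 0.48, with an interval of 0.10 to 0.87 (adjusted p = 0.201). Of 24 immediate early genes 3 rose, the transcription factors Maff (1.00, SE 0.17, adjusted p = 0.00522), Jun (0.39, SE 0.08, adjusted p = 0.00945) and Klf6 (0.35, SE 0.07, adjusted p = 0.0134). Fosl1 had the largest change of this list (1.01, SE 0.27, adjusted p = 0.0554), with overlapping groups. It was among the genes called higher but missed the list threshold.

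Hypoxia, heat shock and the endoplasmic reticulum gave smaller counts. Of 24 hypoxia-inducible genes 4 were higher, led by Bnip3, a mitophagy receptor (0.99, SE 0.16, adjusted p = 0.00412), while Vegfa, a main target of hypoxia-inducible factors, was lower at -0.29 (SE 0.07, adjusted p = 0.0399, or 0.114 without air-ventilated mouse 10, missed in 8 of 10). The higher count ranged from 1 without control mouse 9 to 5 without control mouse 21. Of 17 cytosolic heat shock chaperones 0 passed in limma and 2 in CyberT, with 2 higher and 1 lower at an unadjusted p under 0.05. Hspa1a, the inducible HSP70, overlapped between the groups, with an interval of -0.45 to 1.15 around 0.35 (adjusted p = 0.815). Of 19 chaperones of the endoplasmic reticulum 4 were lower and 0 higher, led by calreticulin, Calr (-0.31, SE 0.07, adjusted p = 0.0208, or 0.0653 without air-ventilated mouse 10, missed in 4 of 10), a count that ranged from 0 without control mouse 5 to 4 without air-ventilated mouse 22. Genes that answer stretch through YAP and TAZ, cofactors that enter the nucleus when cells are pulled, were represented by 21 members, of which 3 rose and 0 fell. These were F3, tissue factor, which starts coagulation (0.82, SE 0.12, adjusted p = 0.00245), the matricellular protein Ccn2 (0.57, SE 0.10, adjusted p = 0.00677) and Amotl2, a scaffold of cell junctions (0.43, SE 0.09, adjusted p = 0.0155, or 0.0512 without control mouse 9, missed in 1 of 10). F3 stood at 1440.2, 1236, 1343, 1415 and 1366 in control and 2856, 2525, 2117, 1914 and 2752 in ventilated mice, which did not overlap, and was the only one of 22 coagulation and fibrinolysis genes to pass in limma (CyberT passed 3). Bcl2l1, the survival protein BCL-XL, rose by 0.53 (SE 0.09, adjusted p = 0.00522).

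**Figure D3:**
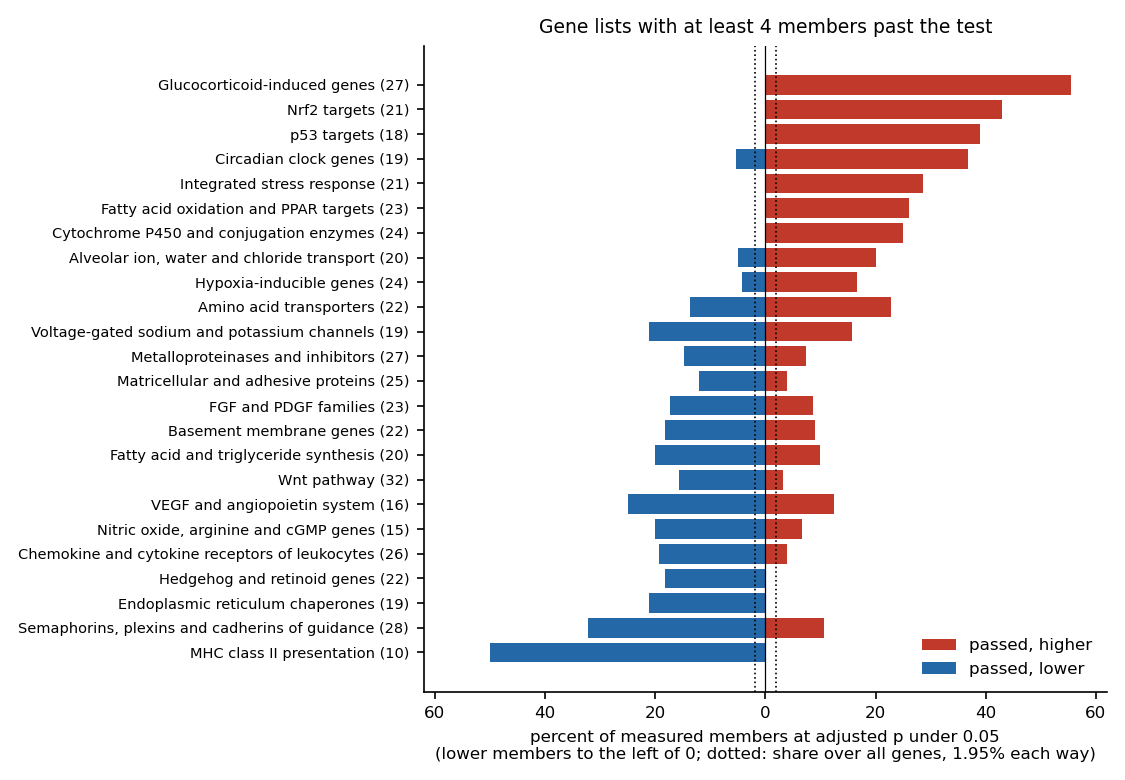
Bars give, for each gene list other than cell markers with at least 4 members past an adjusted p of 0.05, the percent of its measured members that were higher (red, right) or lower (blue, left), with the number measured in parentheses and dotted lines at the share over all genes. Glucocorticoid-induced genes reach furthest to the right, with 15 of 27, and MHC class II genes furthest to the left, with 5 of 10.

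Inflammatory cytokine transcripts, with 1 exception, did not pass the test after 6 h. Of 29 pro-inflammatory cytokines and chemokines 1 passed, Il1f9, an epithelial member of the interleukin 1 family, which stood at 332, 566, 341, 464 and 393 in control and 688, 1015, 711, 604 and 1006 in ventilated mice (0.94, SE 0.18, adjusted p = 0.00945) and did not overlap. The remaining 28 did not pass, 3 members were higher and 2 lower at an unadjusted p under 0.05, and the list median was -0.03. The 95% intervals bound what could have been missed. They were -1.01 to 0.20 for Il6, -0.39 to 0.33 for Tnf, -0.37 to 0.70 for Il1b, -0.19 to 0.26 for the neutrophil chemokine Cxcl1 and -0.37 to 0.29 for the monocyte chemokine Ccl2, all on the log2 scale. Intensities of Il6 were 10.1 to 24.3 in control and at most 22.7 in ventilated mice, near the low end of these arrays. Il1r2, a decoy receptor that binds interleukin 1 without signalling, rose from 273, 806, 401, 656 and 555 in control to 1002, 1491, 1296, 942 and 1450.0 in ventilated mice (1.27, SE 0.24, adjusted p = 0.00782). Those groups did not overlap, control mouse 5 being the highest of its group. Tnfaip3, an inhibitor of NF-kB signalling, fell by 0.44 on the log2 scale (SE 0.08, adjusted p = 0.00749), against the direction of the other members of its list that passed. Il6ra, the interleukin 6 receptor, rose by 0.50 (SE 0.09, adjusted p = 0.00573), and 5 of 26 leukocyte receptors were lower, among them Il10ra (-0.83, SE 0.17, adjusted p = 0.0104), a count that ranged from 1 without control mouse 25 to 7 without control mouse 21. Homeostatic chemokines gave 2 lower genes, Cxcl12, which holds leukocytes in tissue (-0.90, SE 0.15, adjusted p = 0.00402), and Cxcl14 (-0.59, SE 0.11, adjusted p = 0.00906). Serpina3n, a serine protease inhibitor of the acute phase, rose from 4022, 3655, 3784, 4339 and 3824 in control to 6269, 6389.8, 6337, 4716 and 5918 in ventilated mice (0.59, SE 0.10, adjusted p = 0.00428), without overlap. Of the 18 acute-phase genes 2 were higher, a count that ranged from 1 without control mouse 21 to 4 without air-ventilated mouse 22. Of 15 complement components 0 passed in limma or CyberT, and 1 was higher at an unadjusted p under 0.05. Vcam1, an endothelial adhesion molecule for leukocytes, was lower (-0.38, SE 0.08, adjusted p = 0.0124).

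Interferon-stimulated genes all had a negative sign and mostly did not pass. Of 22 genes of the type I response 0 passed in limma and 5 in CyberT, with 5 lower at an unadjusted p under 0.05 and a median of -0.53. The controls were spread widely. Mx1, an antiviral GTPase, stood at 69.9, 432, 77.9, 161 and 111 in control mice and 56.8, 63.4, 61.0, 100.99 and 67.7 in ventilated mice, so that control mouse 5 was far above its group while mice 1 and 9 lay among the ventilated values, and its interval was -1.76 to -0.16 (adjusted p = 0.222). The summed intensity of the list was 12149 to 41791 in control and 9919 to 20504 in ventilated mice. Of 15 genes induced by interferon gamma 2 were lower and 0 higher, at a median of -0.76. These were Ciita, the master activator of MHC class II (-0.72, SE 0.16, adjusted p = 0.0153), and the GTPase Gbp9, which overlapped between the groups (-1.22, SE 0.31, adjusted p = 0.0387, or 0.107 without air-ventilated mouse 6, missed in 8 of 10). The interferon gamma count ranged from 1 without control mouse 21 to 5 without air-ventilated mouse 22. MHC class II molecules display peptides to helper T cells and are carried by B cells and dendritic cells. Of 10 class II genes 5 were lower, H2-Eb2 (-0.85, SE 0.17, adjusted p = 0.00916), H2-Ob (-0.98, SE 0.19, adjusted p = 0.00935), H2-Oa (-0.55, SE 0.12, adjusted p = 0.0215, or 0.0628 without control mouse 25, missed in 5 of 10), H2-Ab1 (-0.43, SE 0.10, adjusted p = 0.0307, or 0.0887 without air-ventilated mouse 10, missed in 6 of 10) and Ciita, a count that ranged from 3 without control mouse 25 to 5 without air-ventilated mouse 22. H2-Eb2 stood at 232, 184, 278, 161 and 251 in control and 122, 134, 87.2, 149 and 121 in ventilated mice and did not overlap. The B cell markers of the same mice, given below, moved with them, and their part was not tested. In class I presentation 2 of 12 genes passed, the proteasome activator Psme2 (-0.42, SE 0.09, adjusted p = 0.0178, or 0.055 without air-ventilated mouse 26, missed in 3 of 10) and the immunoproteasome subunit Psmb10 (-0.55, SE 0.14, adjusted p = 0.0408, or 0.116 without air-ventilated mouse 10, missed in 7 of 10), with 11 lower at an unadjusted p under 0.05. The passing count ranged from 0 without control mouse 5 to 4 without air-ventilated mouse 22.

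Matrix genes moved in both directions. Lox, lysyl oxidase, crosslinks collagen and elastin. It stood at 872, 1287, 928, 1764 and 1329.6 in control and 2888, 3047, 3339.8, 2052 and 3309 in ventilated mice, a change of 1.27 (SE 0.18, adjusted p = 0.00183) with no overlap. Its relative Loxl1, which ties elastic fibres, moved the other way, from 1184, 1074, 1065, 1016 and 1191 in control to 589, 588, 779, 839.8 and 825 in ventilated mice (-0.63, SE 0.12, adjusted p = 0.00829), also without overlap. Eln, the gene of elastin itself, overlapped, with an interval of -1.29 to -0.01 (adjusted p = 0.34) and ventilated mice from 533 to 2320.4. Of 24 collagen chains 1 passed, Col6a3 of microfibrillar collagen VI (-0.61, SE 0.13, adjusted p = 0.0174, or 0.0555 without air-ventilated mouse 2, missed in 2 of 10), and 20 had a negative sign. Spon2, a secreted protein of the matrix that binds integrins, fell from 476, 563, 556, 347 and 446 in control to 100.04, 125, 115, 264 and 119.9 in ventilated mice. The groups did not overlap, mouse 22 was the highest of its group by a wide margin, and the change was -1.79 (SE 0.22, adjusted p = 0.00104). Of 25 matricellular and adhesive genes 3 were lower, Spon2, Ccn5, a growth-restraining protein of the CCN family (-0.82, SE 0.17, adjusted p = 0.0139), and tenascin C, Tnc (-0.74, SE 0.17, adjusted p = 0.0218, or 0.0662 without air-ventilated mouse 2, missed in 6 of 10), and 1 was higher, Ccn2. Hmcn1 was lower in each of its 77 clusters, at a median of -0.98 and between -1.23 and -0.62. At the cluster with the largest change it stood at 457, 561, 677, 390.4 and 451 in control and 186, 148, 214, 289 and 256 in ventilated mice (-1.23, SE 0.22, adjusted p = 0.00557), without overlap. Of 22 basement membrane genes 2 rose, Tinagl1, a secreted adhesion protein (0.82, SE 0.13, adjusted p = 0.00305), and the laminin chain Lamc3 (0.46, SE 0.09, adjusted p = 0.00781), while 4 fell, among them Fras1 (-0.55, SE 0.09, adjusted p = 0.00476), a count that ranged from 2 without control mouse 1 to 4 without air-ventilated mouse 22. Beside Mmp8, the inhibitor Timp3 rose (0.44, SE 0.08, adjusted p = 0.00522) and 4 of 27 metalloproteinase genes were lower, a count that ranged from 0 without control mouse 1 to 4 without air-ventilated mouse 22.

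A single gene of capillary cells was among the 12 largest falls, and other endothelial genes fell by less. Aplnr, the apelin receptor of general capillary cells, stood at 1373, 1114, 1447, 1094 and 1051 in control and 332, 275, 356, 751 and 478 in ventilated mice, a change of -1.55 (SE 0.27, adjusted p = 0.00537). Its ligand Apln, made by the large aerocyte capillary cells that face the air, fell from 1107, 1002, 848, 944 and 884 to 393, 666, 509, 660.4 and 548 (-0.80, SE 0.16, adjusted p = 0.00866). In neither gene did the groups overlap. Gja5, a connexin of arterial endothelium, fell, with 395 to 549.8 in control and 174 to 299 in ventilated mice (-1.14, SE 0.17, adjusted p = 0.00267), and Gja4, its partner, was lower as well (-0.56, SE 0.12, adjusted p = 0.0165, or 0.0502 without air-ventilated mouse 10, missed in 1 of 10). In the VEGF and angiopoietin system, which keeps capillaries alive and tight, 4 of 16 genes were lower, including the receptor Kdr (-0.58, SE 0.11, adjusted p = 0.00952) and the ligand Angpt2 (-0.70, SE 0.17, adjusted p = 0.0271, or 0.0857 without control mouse 9, missed in 4 of 10), and 2 higher, Ccbe1, which helps mature VEGF-C (1.00, SE 0.12, adjusted p = 0.00104), and placental growth factor, Pgf (0.60, SE 0.13, adjusted p = 0.0167, or 0.0511 without air-ventilated mouse 26, missed in 2 of 10). The lower count ranged from 1 without control mouse 1 to 5 without air-ventilated mouse 22. Of 15 genes of nitric oxide, arginine and cGMP 3 were lower and 1 was higher, a lower count that ranged from 2 without control mouse 9 to 5 without air-ventilated mouse 22. Ddah1, which clears an inhibitor of nitric oxide synthase, fell, with 1117 to 1485 in control and 572 to 932 in ventilated mice (-0.87, SE 0.14, adjusted p = 0.00327). Pde5a, which breaks down cGMP, fell as well, with 1915 to 2885 against 1101 to 1587 (-0.83, SE 0.14, adjusted p = 0.0052). Arg2, an arginase that competes for arginine, rose (0.65, SE 0.14, adjusted p = 0.0136). Sphk1, which makes the barrier lipid sphingosine-1-phosphate, rose from 530.2, 369.6, 341, 626 and 535 in control to 923, 973, 944, 806 and 1049 in ventilated mice (1.00, SE 0.15, adjusted p = 0.00235), while Spns2, its exporter, was lower (-0.48, SE 0.09, adjusted p = 0.00787).

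Markers shared by all endothelium did not move as one. Of 21 pan-endothelial markers 3 were lower and 0 higher, at a median of -0.05, and their summed intensity was 62469 to 67393 in control and 58161 to 63201 in ventilated mice. The lower count ranged from 2 without control mouse 25 to 6 without air-ventilated mouse 22. Of 12 markers of general capillary cells 3 were lower and 2 higher, the latter Adgrl3, an adhesion receptor (0.67, SE 0.12, adjusted p = 0.00552), and Lpl, described above. Of 12 aerocyte markers 2 were lower and 1 was higher, Fibin, a secreted protein (0.80, SE 0.12, adjusted p = 0.00256). Of 8 lymphatic markers 0 passed in limma, 2 in CyberT, and 3 were higher at an unadjusted p under 0.05. Among 296 microRNA clusters 1 was called, a smaller share than the 1.14% of all clusters. It was that of Mir126a, a microRNA of endothelial cells. It stood at 79.4, 83.0, 54.3, 115 and 92.6 in control and 168, 139, 189.7, 134 and 268 in ventilated mice and did not overlap (1.08, SE 0.22, adjusted p = 0.0118). Its mature product in RefSeq, on build GRCm38.p6 at chr2:26591402-26591423 (plus strand), is shown with its seed, bases 2 to 8, in capitals.
mmu-miR-126a-3p: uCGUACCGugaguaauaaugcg
The labelling began from random primers on total RNA, so this cluster reads transcript from the locus and not the mature 22-base form alone. Egfl7, the protein-coding gene in which Mir126a lies, overlapped between the groups, with a change of 0.07 and an interval of -0.09 to 0.24 (adjusted p = 0.807).

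Alveolar fibroblasts, which lie in the septa and supply growth factors to the epithelium, had several signature transcripts at lower levels. Slc7a10, a transporter of small neutral amino acids that marks them, stood at 1223, 906, 1027, 745 and 776 in control and 324, 322, 319, 555 and 365 in ventilated mice (-1.32, SE 0.16, adjusted p = 0.00104). Fgfr4, a receptor for fibroblast growth factors, stood at 791, 491, 573, 457 and 447 against 242, 231, 232, 349 and 215 (-1.11, SE 0.19, adjusted p = 0.00504), and Wnt2, a ligand of these cells, at 472, 390.4, 355, 331 and 358 against 160.4, 189.7, 174, 240.3 and 224 (-0.95, SE 0.14, adjusted p = 0.00267). In all 3 genes the groups did not overlap and mouse 22 was the highest ventilated mouse. Of 16 alveolar fibroblast markers 5 were lower and 0 higher (median -0.22), including the integrin Itga8 (-0.34, SE 0.07, adjusted p = 0.0109). Of 12 adventitial fibroblast markers 0 passed in limma and 1 in CyberT, with 1 lower at an unadjusted p under 0.05, and of 16 pericyte and smooth muscle markers 1 passed, Hhip, an inhibitor of hedgehog ligands (-0.63, SE 0.12, adjusted p = 0.00973). Growth signals of the mesenchyme were among the genes that fell, with 4 lower and 2 higher of 23 in the FGF and PDGF families. Fgf10, the ligand for alveolar epithelial growth, was lower (-0.41, SE 0.08, adjusted p = 0.00712), as were Pdgfa (-0.49, SE 0.09, adjusted p = 0.00738) and Fgf18 (-0.54, SE 0.11, adjusted p = 0.00972). The Wnt ligand Wnt5a (-0.47, SE 0.10, adjusted p = 0.0133) and the Wnt antagonist Sfrp2 (-0.97, SE 0.18, adjusted p = 0.00687) were lower, and 5 of 32 Wnt genes passed downward and 1 upward, a lower count that ranged from 3 without control mouse 1 to 7 without air-ventilated mouse 22. Lrat, which stores vitamin A as retinyl ester, fell, with 907 to 1483 in control and 408 to 718 in ventilated mice (-1.15, SE 0.18, adjusted p = 0.00327), and Aldh1a2, which makes retinoic acid, was lower as well (-0.63, SE 0.13, adjusted p = 0.0109). Of 22 hedgehog and retinoid genes 4 were lower and 0 higher.

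Guidance and adhesion receptors, which steer cells along each other, gave one of the larger counts. Of 28 semaphorins, plexins and guidance cadherins 9 were lower and 3 higher, at a median of -0.21. Sema5a stood at 722, 655, 625, 1028 and 904 in control and 1835, 1228, 2010.1, 1458 and 1999 in ventilated mice (1.12, SE 0.17, adjusted p = 0.00305), and the receptor Plxna2 (0.79, SE 0.10, adjusted p = 0.00121) and Sema7a (0.72, SE 0.11, adjusted p = 0.00327) also rose. Among those that fell were the cadherins Cdh11 of mesenchyme (-0.91, SE 0.15, adjusted p = 0.00421) and Cdh2 (-0.72, SE 0.13, adjusted p = 0.00522) and the endothelial semaphorin receptor Plxnd1 (-0.95, SE 0.19, adjusted p = 0.00953). The lower count ranged from 5 without control mouse 9 to 10 without air-ventilated mouse 22. Gfra2, a receptor for the neurotrophic ligand neurturin, had the fourth largest fall. It stood at 1021, 707, 831, 615 and 689.9 in control and 188, 189.6, 217, 414 and 306 in ventilated mice, a change of -1.60 (SE 0.21, adjusted p = 0.00124), with no overlap, and was the only one of 14 genes of GDNF and neurotrophin signalling to pass in limma (CyberT passed 1 higher and 1 lower). Tgfbr3, a coreceptor for TGF-beta, rose (0.61, SE 0.09, adjusted p = 0.00267), and 27 of 30 TGF-beta, BMP and activin genes did not pass.

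Markers of the alveolar epithelium mostly did not pass. Sftpc changed by 0.00 with an interval of -0.12 to 0.12. Of 18 alveolar type II markers 1 was lower, Egfl6, an extracellular protein (-0.46, SE 0.09, adjusted p = 0.00801), and of 20 type I markers 2 were higher and 2 lower, both counts falling to 0 without control mouse 9. For club cells 0 of 16 and for ciliated cells 0 of 20 markers passed in limma, with 1 higher and 2 lower, and 0 higher and 1 lower, at an unadjusted p under 0.05. CyberT passed 1 higher and 2 lower club cell markers and 1 lower ciliated marker. Of 20 genes of alveolar ion, water and chloride transport 4 were higher and 1 lower. Clca3a1 and Clca3a2, secreted or membrane proteins that regulate chloride channels, both rose. Clca3a1 stood at 52.6, 88.3, 70.9, 111 and 96.5 in control and 293, 183, 284, 154 and 283 in ventilated mice (1.51, SE 0.20, adjusted p = 0.00145), and Clca3a2 at 47.0, 67.0, 44.8, 79.1 and 48.9 against 139, 128, 162, 97.7 and 135 (1.22, SE 0.17, adjusted p = 0.00175). Neither overlapped, and the 2 genes are close copies whose probes may share sequence. Ano1, a calcium-activated chloride channel, fell (-0.69, SE 0.15, adjusted p = 0.014), and Atp1b1, a subunit of the sodium pump that drives alveolar fluid clearance, rose (0.35, SE 0.07, adjusted p = 0.0108). Scnn1a, the alpha subunit of the epithelial sodium channel, overlapped, with an interval of 0.08 to 0.55 (adjusted p = 0.16). Of 19 genes of sodium and potassium channels and their partners, not all of them voltage-gated, 3 were higher and 4 lower. Kcnip3, a calcium-binding partner of potassium channels, stood at 338, 288, 276, 548 and 414 in control and 909.9, 733, 1162, 853 and 868 in ventilated mice (1.31, SE 0.17, adjusted p = 0.00113), without overlap. The potassium channels Kcnk1 (0.73, SE 0.10, adjusted p = 0.00124) and Kcnj2 (0.85, SE 0.16, adjusted p = 0.00712) rose as well, while the sodium channel Scn3a fell (-1.16, SE 0.16, adjusted p = 0.00201). Of 22 amino acid transporters 5 were higher, among them Slc38a4 (1.10, SE 0.18, adjusted p = 0.00421), and 3 lower. These counts include Slc7a11 (higher) and Slc7a10 (lower), which other lists above hold as well. The higher count ranged from 2 without control mouse 9 to 6 without control mouse 21. Of 22 junction genes 1 passed, Perp.

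B lymphocyte markers fell almost throughout. Of 19 measured 18 were lower (all genes 1.95%) and 0 higher, at a median of -0.89, and in 12 the ventilated mice lay below all controls (all genes 3.25%). Ms4a1, the surface protein CD20, stood at 429, 979.8, 629, 411 and 706 in control and 158, 146, 98.8, 321 and 191 in ventilated mice (-1.82, SE 0.33, adjusted p = 0.00684). Cd79a, a signalling chain of the B cell receptor, stood at 992, 1073, 1091, 786 and 1345 against 355, 289, 179, 747 and 276 (-1.67, SE 0.32, adjusted p = 0.00878). In both genes mouse 22 was the highest ventilated mouse, close to the lowest control, and mouse 10 the lowest. Fcer2a, the low-affinity IgE receptor, fell, with 197 to 438 in control and 82.1 to 159.7 in ventilated mice (-1.39, SE 0.24, adjusted p = 0.0052). Spib, a transcription factor of B cells, was at 249 to 471 and 87.2 to 241 (-1.38, SE 0.25, adjusted p = 0.00608), and Fcmr, the IgM receptor, at 379.9 to 688 and 149 to 356 (-1.26, SE 0.23, adjusted p = 0.00688). Ly6d, a surface protein of B-lineage cells, was at 344 to 581 and 129.6 to 337 (-1.32, SE 0.23, adjusted p = 0.00555). None of these 4 genes overlapped between the groups. The list mean, set against the control mean, was -1.45 to -0.47 on the log2 scale in ventilated and -0.41 to 0.31 in control mice. Of 8 plasma cell markers 0 passed in limma or CyberT, with 1 lower at an unadjusted p under 0.05.

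Other leukocyte markers gave smaller counts in limma. Of 17 T cell markers 1 was lower, Cd2, which overlapped (-0.76, SE 0.18, adjusted p = 0.0248, or 0.0724 without air-ventilated mouse 10, missed in 6 of 10), and the list median was -0.05. Of 14 NK cell markers 0 passed in limma and 4 in CyberT, with 5 lower at an unadjusted p under 0.05. Their list mean, set against the control mean, was -1.12 to 0.03 in ventilated and -0.20 to 0.54 in control mice, so that some ventilated mice lay at the control level and others far below. Of 16 dendritic cell markers 5 were lower and 0 higher, led by Irf8, a transcription factor of dendritic cells and monocytes (-0.62, SE 0.13, adjusted p = 0.0154), a count that ranged from 1 without control mouse 9 to 5 without air-ventilated mouse 22. Tnfsf10, the death ligand TRAIL, stood at 1286, 1749, 1354, 1364 and 1484 in control and 573, 366, 569, 982 and 720.3 in ventilated mice, a change of -1.24 (SE 0.27, adjusted p = 0.016) with no overlap. Of 17 alveolar macrophage markers 2 were higher, among them the mannose receptor Mrc1 (0.37, SE 0.07, adjusted p = 0.0108), and 1 was lower. The higher count ranged from 1 without control mouse 25 to 4 without air-ventilated mouse 22. Of 19 monocyte and interstitial macrophage markers 1 rose, Cd163, a haemoglobin scavenger receptor of resident macrophages (0.64, SE 0.12, adjusted p = 0.00815), and 1 fell, the fractalkine receptor Cx3cr1 (-0.50, SE 0.13, adjusted p = 0.042, or 0.114 without control mouse 25, missed in 8 of 10), but 14 had a negative sign and the median was -0.38. At an unadjusted p under 0.05, 3 were higher and 8 lower, and CyberT passed 3 higher and 8 lower.

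Neutrophil markers rose in part. Of 21 measured 4 were higher and 0 lower, at a median of 0.24, and 7 were higher at an unadjusted p under 0.05. Beside Mmp8 and Il1r2 these were Retnlg, a resistin-like protein of neutrophils, and Lcn2, lipocalin 2. Retnlg stood at 1225, 2034, 1385, 1856 and 1588 in control and 3824, 4420.3, 3214, 2652 and 3756 in ventilated mice, which did not overlap (1.15, SE 0.17, adjusted p = 0.00267). Lcn2, which epithelium also makes, rose by 0.38 (SE 0.10, adjusted p = 0.0411, or 0.112 without air-ventilated mouse 6, missed in 9 of 10). S100a8, an abundant neutrophil protein, stood at 635 to 1439 in control and 923 to 1557 in ventilated mice and overlapped, with an interval of -0.03 to 0.96 (adjusted p = 0.404). The summed intensity of the list was 15070.0 to 22830.0 in control and 20978 to 29924 in ventilated mice. Neutrophils removed with lavage fluid would not be in these values. Markers of tissues that a lobe can carry along were checked as well. Of 14 cardiac, 11 skeletal muscle, 9 adipose and 10 erythroid and platelet markers 0 passed in limma in either direction, while at an unadjusted p under 0.05 there were 0 cardiac, 1 skeletal, 1 higher and 1 lower adipose and 1 lower erythroid markers (CyberT passed 1 lower adipose and 1 lower erythroid marker). Of 9 liver secretory markers Alb, serum albumin, was lower, overlapping between the groups (-1.16, SE 0.28, adjusted p = 0.03, or 0.0856 without control mouse 9, missed in 8 of 10). None of 26 cell cycle genes passed in limma or CyberT, and 0 were at an unadjusted p under 0.05.

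**Figure D4:**
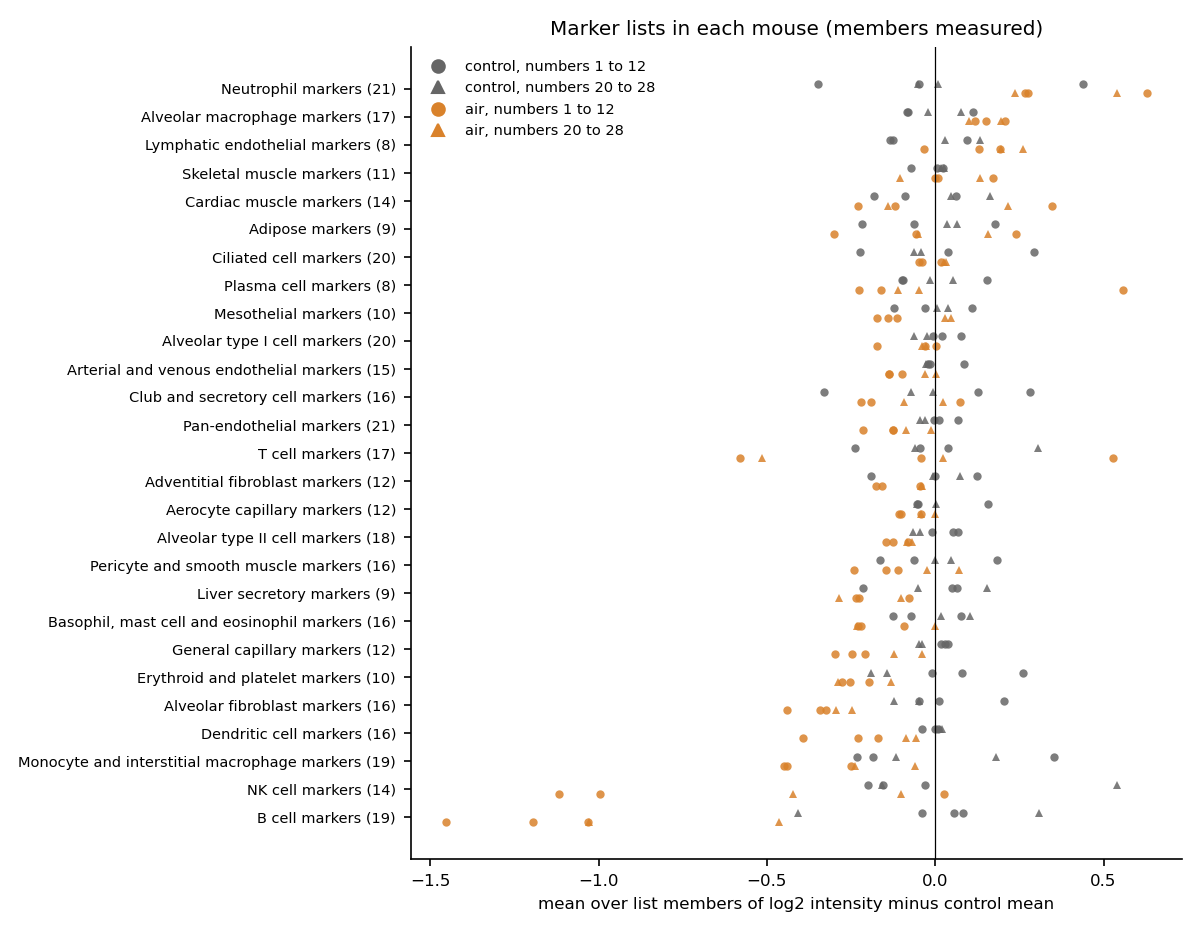
Each symbol is 1 mouse, placed by the mean over the members of a marker list of log2 intensity minus the control mean, with control in grey, air ventilation in orange, circles for mice numbered 1 to 12 and triangles for 20 to 28. The B cell list lies lowest, with all 5 ventilated mice below every control by a narrow margin for mouse 22, and the ventilated NK cell and T cell values are spread widely.

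The size of the response differed between mice of a group. Mouse 22 was the ventilated mouse nearest to the controls in 129 of the 166 called genes, and control mouse 21 the control nearest to the ventilated mice in 115. Averaged over the 82 genes called higher, log2 values relative to the control mean were 1.09, 1.08, 1.02, 0.77 and 1.18 in ventilated mice 2, 6, 10, 22 and 26, and over the 84 called lower -1.13, -1.33, -1.20, -0.52 and -0.96. Control mouse 21 was at 0.35 and -0.26 in these sets. Since the genes were called by this comparison, these means describe the mice and test nothing. Without mouse 22, 311 clusters were called. Within the mice numbered 1 to 12 and within those numbered 20 to 28 all 166 genes had the same sign as in all mice. Calling the genes on these same mice favours such agreement, so it is no support. The median absolute log2 change was 1.19 in mice 1 to 12 and 0.66 in mice 20 to 28, and 164 genes were smaller in the latter. Doc2b was at 2.46 and 1.25, Fkbp5 at 1.83 and 0.97, Aplnr at -2.03 and -0.84 and Ms4a1 at -2.29 and -1.12. The difference between the number sets was tested as an interaction term, chosen after the values were seen. It reached an adjusted p under 0.05 in 0 of the 166 genes. An unadjusted p under 0.05 was reached in 54 of the 166, against 744 of all 19934 genes (3.73%). As all genes are read in the same mice, these are not independent tests. With the 2 mice per group numbered 20 to 28 alone, limma called 0 clusters, with 1344 of 21780 at an unadjusted p under 0.05. Each number set holds mice of both groups.

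**Figure D5:**
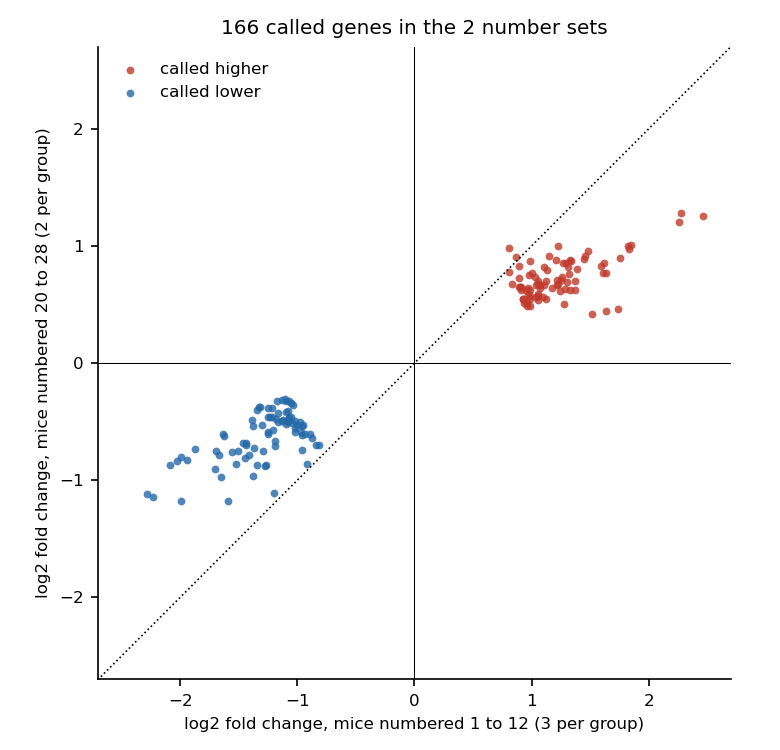
Each point is 1 of the 166 called genes, placed by its log2 fold change in the 3 mice per group numbered 1 to 12 (horizontal) and in the 2 per group numbered 20 to 28 (vertical), with the dotted line at equal change. All points keep their sign in both sets, which calling the genes on these same mice favours, and 164 lie nearer 0 on the vertical axis.

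The mice ventilated with H2S, at the same settings and duration, share the control mice with this comparison. Beside the changes under air of 1.49 for Fkbp5, 1.27 for Lox, -1.55 for Aplnr and -1.82 for Ms4a1, those with H2S against the same controls were 1.56, 1.35, -1.75 and -1.88. Other called genes differed more, such as F3 (0.82 under air and 1.49 with H2S), Maff (1.00 and 1.81), Mt1 (0.89 and 1.54) and Pmvk (1.10 and 1.77). Set directly against air-ventilated mice, H2S gave 0 of the 166 genes called with air past an adjusted p of 0.05 in limma and 17 at an unadjusted p under 0.05. Over all clusters with 1 symbol 0.0781% passed it. A p that misses the threshold does not show that the groups are alike, and with H2S minus air Fkbp5 differed by 0.07 (SE 0.16) and Aplnr by -0.20 (SE 0.27). F3 had the lowest p of the 166 and differed by 0.67 (SE 0.12, adjusted p = 0.0542), followed by Maff with 0.81 (SE 0.17, adjusted p = 0.166).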

How the data were processed

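Total RNA of the inferior right lobe was hybridised to Affymetrix whole-transcript arrays, 1 per mouse. Per the study's methods, the authors corrected background by the GC content of probes, applied quantile normalization and summarised probe sets with RMA, and the deposited table holds 1 linear intensity per transcript cluster. Log2 of the deposited intensity was fitted in limma 3.58.1 (R 4.3.3) with all 15 arrays and 3 groups, so that the H2S arrays add to the estimate of the spread. Adjusted p values are Benjamini-Hochberg over all 28361 clusters, of which 21780 had 1 gene symbol, 1617 several and 4964 none in the platform annotation. Genes with several clusters (996) were read at the one with the highest mean, and leading genes at the one with the largest change. The script was tested on simulated data. Labels do not say whether mice were handled in batches. The p values rest on the spread between mice within the 3 groups, in which differences between the number sets remain.

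Named genes were the 12 largest rises and falls with groups that did not overlap, genes the study follows up and up to 4 members of a list by adjusted p. Genes outside that rule were added for their role, with values known. The comparison and all 82 gene lists were chosen with earlier results of these data known. Alternatives were CyberT (window 101, confidence 15), other normalizations, filters, weights, blocks, number sets and leaving out each mouse.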

Additional observations from a re-analysis of the deposited data

Results flagged for a closer look

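The H2S ventilation group of the same series differed from air-ventilated mice in 3 of the genes named above, none of them called with air. In H2S minus air, limma gave a log2 difference of 0.95 for Gadd45a, 1.97 for Atf3 and 2.87 for Hspa1a, each past an adjusted p of 0.05.

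In groups of 5 mice the highest and the lowest value of each named gene other than Fosl1 were set against Dixon's 95% critical value of 0.71. Chance alone marks about 1 in 20 such groups, and 17 of 324 were marked here. Ventilated mouse 22 was the lowest of the ventilated group in Fkbp5 (1434), Angptl4 (1325) and Serpina3n (4716). It was the highest in Spon2 (264), Fras1 (156), Slc7a10 (555), Fgfr4 (349) and Cx3cr1 (345). Control mouse 5 was the highest control in Tnfaip3 (591), Vcam1 (1113) and Arg2 (693) and the lowest in Cd163 (74.2). Control mouse 25 was the highest in Ciita (427) and Irf8 (1169). Control mouse 9 was the lowest in Socs3 (276) and control mouse 1 the lowest in Cxcl1 (96.7). Ventilated mouse 6 was the highest of its group in Dbp (894).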

How the results depend on the processing

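Counts of called clusters and genes stayed within 1.5 times of those reported under the other scalings, weights, filters, blocks and tools tried, except those given here. CyberT passed 168 distinct list genes higher and 198 lower, against 110 and 122 with limma. In the mice numbered 1 to 12 alone 149 genes were called lower, against 84, and 61 list genes passed upward. In the mice numbered 20 to 28 alone 0 clusters were called in either direction and 0 list genes passed. This setting leaves 2 mice per group. Of the 249 called clusters 161 had an unadjusted p under 0.05 there. As these mice took part in the calls and 74 of the 249 clusters belong to Hmcn1, that count is no separate support. Of the genes called with air, H2S minus air passed in 1 with a variance trend, in the brighter part of the table, after a new quantile normalization, with 16 added to each intensity and with number sets as a block, and in 2 with array weights.

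With 1 mouse left out, 210 (without ventilated mouse 6) to 311 (without ventilated mouse 22) clusters were called, and 72 to 116 list genes passed upward and 73 to 143 downward, lowest in both directions without control mouse 9. H2S minus air gave 0 to 2 genes. Of 144 named genes past an adjusted p of 0.05, 118 passed in every such fit and 26 missed it in at least 1, none with a change of sign. With the 10 arrays of both groups alone 14 of them missed it, Tsc22d3, Nr1d2, Slc7a11, Cth, Vegfa, Calr, Ciita, Gbp9, H2-Ab1, Angpt2, Pgf, Cd2, Cx3cr1 and Alb, with adjusted p values from 0.0503 (Gbp9) to 0.0904 (Cx3cr1). With a robust variance trend 4 missed it, Adgre4, Ciart, Slc7a11 and Gbp9, in mice 1 to 12 alone 35, and in mice 20 to 28 alone all 144.

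The labels give each mouse 2 numbers with no stated meaning, and replicate numbers within a group were assigned by order alone. Of the first numbers 2 occur in both groups, 12 (control mouse 21 and ventilated mouse 10) and 6 (control mouse 5 and ventilated mouse 2), with correlations of -0.18 and 0.04 between these mice, and no fit used them as a block. The second numbers, used here as names, fall into runs of 4, and each of the 5 runs used holds 1 control and 1 ventilated mouse. Deviations from the group means correlated between air and control mice of a run at -0.02 (mice 2 and 1) to 0.33 (22 and 21). Their mean was 0.18, against -0.04 between air and control mice of different runs. The main fit did not take the numbers as pairs. With the run as a replicate block 247 clusters were called, 83 higher and 164 lower, and 100 list genes passed upward and 102 downward. Of the named genes, 7 then missed an adjusted p of 0.05, namely Ciart (0.0535), Sesn2 (0.074), Vegfa (0.062), H2-Ab1 (0.0707), Tnc (0.0541), Cx3cr1 (0.0899) and Lcn2 (0.061).

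Genes with changes near 0 took the opposite sign in some settings, and the cause was not tested. From group medians these were Scgb1a1 (-0.063), Atf3 (-0.0019), Tnf (0.11) and Cxcl1 (-0.054). With array weights they were Scgb1a1 (-0.033), Atf3 (-0.025), Il1b (-0.011) and Cxcl1 (-0.049), and after a new quantile normalization Sftpc (-0.019) and Scgb1a1 (-0.030). In mice 1 to 12 they were Sftpc (-0.011), Tnf (0.024) and Ccl2 (0.037), and in mice 20 to 28 Atf3 (-0.26). With 1 mouse left out the changes ranged from -0.012 to 0.017 for Sftpc, -0.044 to 0.044 for Scgb1a1, -0.092 to 0.10 for Atf3, -0.13 to 0.10 for Tnf, -0.062 to 0.080 for Cxcl1 and -0.11 to 0.011 for Ccl2.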
